A study of Mus musculus with 12 samples.

Results

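Adipokines are proteins that fat cells release into the blood or the surrounding tissue, and 9 genes of this kind, 7 adipokines and 2 receptors, were followed through single-cell RNA sequencing of the mouse aorta. They were taken as a list of names, out of 32285 genes in the deposited tables, by a rule that uses no measured value. Earlier results of these data were known when the list was chosen. The adipokines were Adipoq (adiponectin), Retn (resistin), Lep (leptin), Cfd (complement factor D, or adipsin), Rbp4 (retinol-binding protein 4), Nampt (visfatin, the enzyme that makes nicotinamide mononucleotide) and Rarres2 (chemerin). Adipor1 and Adipor2 encode the receptors of adiponectin. Of the 9, 8 reached 10 CPM in at least 1 library of each comparison, and Lep did not. A UMI (unique molecular identifier) marks 1 captured RNA molecule, and a level in CPM is the UMIs of a gene per 1000000 UMIs of all genes in the same cells.

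Adiponectin, resistin and adipsin in the mouse are made by mature adipocytes under the nuclear receptor PPARγ and the C/EBP factors. Adiponectin acts through its receptors on fatty acid oxidation, adipsin is the serine protease that cleaves factor B in the alternative complement pathway, and leptin signals the size of fat stores to the brain. Chemerin attracts leukocytes through the receptor Cmklr1, and retinol-binding protein 4 carries retinol in plasma. Large arteries lie in perivascular fat, which is a source of these proteins beside the vessel wall. The methods used here do not say whether that fat was removed from the aortas.

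The 4 groups were male C57BL/6J mice labelled ApoE-/-, aged 8 weeks at the start and followed for 24 weeks. The Healthy group ate a normal diet and received saline. The AS (atherosclerosis) group ate a high-fat diet and received saline. The MTZ-treated group ate the high-fat diet and received methazolamide (MTZ), a carbonic anhydrase inhibitor that the sample labels spell methoxazolamide, at 25 mg/kg for the last 12 weeks. The MTZ-preventive group ate the same diet and received the drug for all 24 weeks. The aortas of 6 mice per group were pooled into 1 gene expression library made from the 5′ ends of transcripts, so no difference between groups has a replicate or a test, and the intervals given are 95% intervals for counting error only.

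After filtering, 14186 cells were left in MTZ-preventive, 11121 in the library labelled Healthy, 6796 in MTZ-treated and 2160 in AS, with 3796350 to 35492927 UMIs per library and a median of 1300 to 1936 UMIs per cell. A count of 0 allowed up to 0.0845 to 0.790 CPM, the highest in AS. Apoe itself stood at 681.5 CPM in the library labelled Healthy and at 8.23 to 12.8 CPM in the other 3, which goes against an ApoE-/- label for the first. Every comparison with that library therefore also differs in Apoe. Between 28.1% and 47.6% of the cells of a library carried at least 3 markers of 2 classes, and 603 of 33652 distinct barcodes occurred in at least 2 libraries.

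The 250 bases before the start site are shown for the 4 hormone genes, because 3 of them moved together through the cells and libraries and the fourth was nearly silent. They are RefSeq sequences of build GRCm38.p6 (mm10), on the plus strand in all 4 cases: Adipoq at chr16:23146286-23146535, Retn at chr8:3655520-3655769, Cfd at chr10:79890603-79890852 and Lep at chr6:29059971-29060220. Capitals mark matches to any of 4 motifs, searched on both strands. These were the C/EBP-type motif TTGCNNAA, the CCAAT box, the TATA-type motif TATAAA and the nuclear receptor motif AGGTCA.
Adipoq: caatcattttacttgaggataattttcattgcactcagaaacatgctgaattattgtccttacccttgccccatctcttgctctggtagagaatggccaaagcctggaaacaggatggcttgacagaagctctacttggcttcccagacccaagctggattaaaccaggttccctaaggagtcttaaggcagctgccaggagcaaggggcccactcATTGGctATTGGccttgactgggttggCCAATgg
Retn: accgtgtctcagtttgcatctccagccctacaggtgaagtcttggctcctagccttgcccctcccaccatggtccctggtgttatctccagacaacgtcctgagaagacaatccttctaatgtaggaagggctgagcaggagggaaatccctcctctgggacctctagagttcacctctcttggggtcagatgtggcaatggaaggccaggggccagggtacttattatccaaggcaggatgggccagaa
Cfd: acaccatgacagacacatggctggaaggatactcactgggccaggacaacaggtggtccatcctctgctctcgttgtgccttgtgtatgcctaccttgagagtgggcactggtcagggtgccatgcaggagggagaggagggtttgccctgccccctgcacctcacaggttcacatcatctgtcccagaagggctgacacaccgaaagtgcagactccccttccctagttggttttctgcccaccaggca
Lep: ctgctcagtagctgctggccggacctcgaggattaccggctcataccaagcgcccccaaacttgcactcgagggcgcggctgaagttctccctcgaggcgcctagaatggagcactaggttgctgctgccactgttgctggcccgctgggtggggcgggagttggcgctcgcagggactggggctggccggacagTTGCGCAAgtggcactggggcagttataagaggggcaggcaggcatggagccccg
Adipoq held CCAAT 3 times, starting 34, 27 and 7 bases before the start site, the first 2 on the minus strand. Lep held 1 TTGCNNAA match, 55 bases before the start, which reads the same on both strands. None of the 4 motifs occurred in the Retn and Cfd windows. Of 32851 promoter windows of 300 bases in the same table, 37.4% held the CCAAT box, 10.8% the C/EBP-type, 13.6% the TATA-type and 16.3% the nuclear receptor motif, so that single matches are frequent and these describe the letters only. Promoters were found for 8 of the 9 genes.

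Adipoq, Retn and Cfd, the 3 adipokines of mature fat cells, differed most between the libraries. Adipoq (ENSMUSG00000022878, chromosome 16, 23146536 to 23157968) was at 289.5 CPM in AS, 168.5 CPM in MTZ-preventive, 15.5 CPM in MTZ-treated and 6.61 CPM in the library labelled Healthy. Retn (ENSMUSG00000012705, chromosome 8, 3655770 to 3659818) was at 538, 179.8, 21.4 and 5.20 CPM in that order. Cfd (ENSMUSG00000061780, chromosome 10, 79890853 to 79892655) was at 11974, 6275, 458 and 141 CPM. All 3 had the same order of libraries, AS over MTZ-preventive over MTZ-treated over the library labelled Healthy, with no overlap of the counting intervals.

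**Figure D1:**
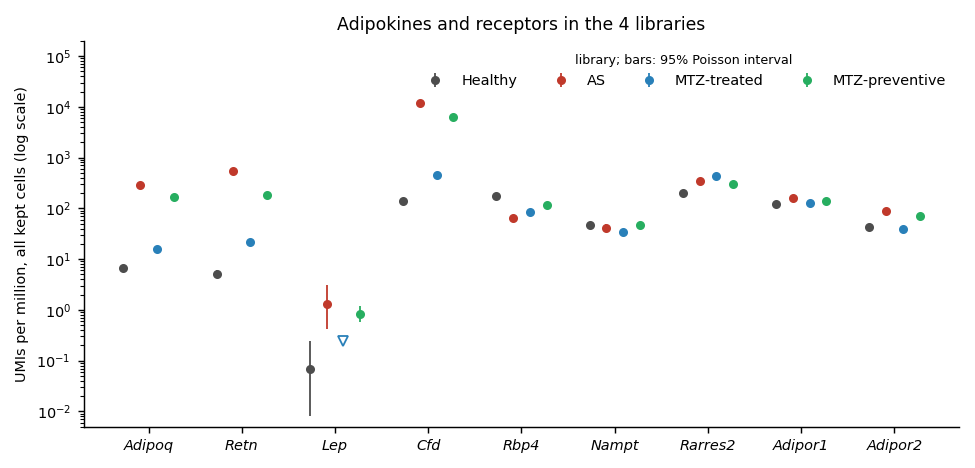
Level of the 9 genes in each library, in CPM of all kept cells on a log axis, with 1 point per library and bars for the 95% Poisson interval (most lie within the point). The open triangle is the upper limit for Lep, which had 0 UMIs in the MTZ-treated library. Adipoq, Retn and Cfd span 1 to 2 orders of magnitude between libraries, Rbp4, Nampt, Rarres2, Adipor1 and Adipor2 at most 2.71-fold, and Lep rests on 0 to 30 UMIs per library.

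Set against the library labelled Healthy, AS had 4 of the 8 genes that reached 10 CPM at least 2-fold higher (Adipoq, Retn, Cfd and Adipor2), against 9.26% of 9521 genes. Retn was 103.5-fold higher (87.9 to 123), Cfd 85.2-fold (82.5 to 87.9), Adipoq 43.8-fold (37.6 to 51.2) and Adipor2 2.09-fold (1.85 to 2.36). Rbp4 was the 1 gene at least 2-fold lower, by 2.71-fold (2.39 to 3.09), against 13.8% of genes. The median log2 ratio over the 8 genes was 0.92, beside -0.10 over all genes. Other sets of barcodes moved the first 3 by more than 1.5 times. Under looser limits, with doublets called anew, the log2 ratio went from 6.69 to 4.71 for Retn, from 6.41 to 4.85 for Cfd and from 5.45 to 3.84 for Adipoq. With all deposited barcodes it was 5.14, 5.13 and 4.15. Which of the changed limits or doublet calls moved the ratios was not tested. B-marker and T-marker cells made up 28.4% and 18.1% of the cells labelled Healthy and 0.741% and 0.556% of those of AS. Without them the log2 ratio was 5.91 for Retn, 5.61 for Cfd, 4.67 for Adipoq and -2.24 for Rbp4, and that of Rarres2 went from 0.78 to -0.02.

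Between MTZ-treated and AS, the same 4 genes were at least 2-fold lower, against 5.76% of 8940 genes, and 0 were at least 2-fold higher, against 5.85%. Cfd was 26.1-fold lower (25.5 to 26.8), Retn 25.1-fold (22.4 to 28.3), Adipoq 18.7-fold (16.2 to 21.6) and Adipor2 2.32-fold (2.03 to 2.66). Between MTZ-preventive and AS, 1 gene was at least 2-fold lower, Retn by 2.99-fold (2.85 to 3.15), against 2.98% of 9141 genes. None was at least 2-fold higher, against 6.3%. Cfd was 1.91-fold (1.89 to 1.93) and Adipoq 1.72-fold (1.61 to 1.83) lower there. The median log2 ratio over the 8 genes was -0.77 and -0.26 in these comparisons, beside 0.07 and 0.10 over all genes. The 3 comparisons share the AS library, the shallowest of the 4.

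The source of these UMIs was read from cell classes. A cell was put into the class of which it had the most of 10 markers, at least 3 and more than of any other class, and no adipokine or receptor was a marker. Adipocyte-marker cells (Plin1, Plin4, Cidec, Car3, Cidea, Pck1, Lipe, Dgat2, Scd1 and Adig) numbered 27 in the library labelled Healthy (0.243% of cells, 0.160 to 0.353), 257 in AS (11.9%, 10.6 to 13.3), 17 in MTZ-treated (0.2501%, 0.146 to 0.400) and 788 in MTZ-preventive (5.56%, 5.18 to 5.94). The share of such cells was thus highest in AS and next in MTZ-preventive, as were Adipoq, Retn and Cfd, while the intervals of the other 2 libraries overlapped. How much fat was left on the aortas of each pool is not stated, and it cannot be told apart from the group. The 10 leading genes of the class held the markers Car3, Cidec and Adig and no marker of another class. In AS 58 and in MTZ-preventive 91 of these cells had exactly 3 markers, and 205 and 931 more cells with at least 3 adipocyte markers fell outside the class because another class had as many or more. At least 3 markers of another class were carried by 25.3% of the class in AS and by 39.6% in MTZ-preventive. Class values are given for at least 20 cells, so none are given for the 17 cells of MTZ-treated.

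In AS and MTZ-preventive, adipocyte-marker cells held most of the UMIs of Adipoq, Retn and Cfd. Their share of a library's UMIs was 64.8% for Adipoq, 63.4% for Retn and 59.7% for Cfd in AS, and 65.8%, 64.5% and 62.0% in MTZ-preventive. The 17 such cells of MTZ-treated held 2978 of its 7060 Cfd UMIs. Adipoq was at 1306 CPM (1212 to 1406) in AS adipocyte-marker cells and at 1075 CPM (1042 to 1109) in those of MTZ-preventive. Retn was at 2376 CPM (2248 to 2509) and 1124 CPM (1090 to 1159) in these. Cfd was at 49784 CPM (49193 to 50380) and 37702 CPM (37503 to 37901), and its median share of the UMIs of a single adipocyte-marker cell was 4.34% in AS and 2.97% in MTZ-preventive, with 14.6% and 11.9% in the highest cells. After each cell was thinned to 1000 UMIs, Cfd was found in all 257 AS cells of the class and in 99.0% of those of MTZ-preventive (99.2% before thinning), against 47.9% and 31.6% of endothelial-marker cells, whose median depth was 1372 and 2061 UMIs beside 1377 and 2309. Adipoq was found in 60.7% and 56.6% after thinning (71.6% and 78.7% before) and Retn in 81.3% and 55.7% (88.7% and 77.8% before). All 3 genes were found together in 49.0% of the AS cells and 33.8% of the MTZ-preventive cells after thinning.

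The 27 adipocyte-marker cells of the library labelled Healthy were less uniform. Adipoq stood there at 162 CPM (134 to 194), Retn at 151 CPM (124 to 182) and Cfd at 4077 CPM (3932 to 4225), 8.07-fold, 15.7-fold and 12.2-fold below AS. Of the 27 cells, 16 also had at least 3 markers of another class, and 8 had no UMI of any of the 3 genes after thinning. A single cell held 119188 UMIs, with 0 UMIs of Adipoq, Retn and Cfd. Summed levels weight cells by depth, so such a cell lowers them. In the other 26 cells Adipoq was at 193 CPM, Retn at 180 CPM and Cfd at 4866 CPM, still below AS. The median share of Cfd in the UMIs of a single cell was 1.60% in this class, beside 4.34% in AS. A lower level of RNA in each fat cell and a class with fewer true fat cells cannot be told apart here.

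**Figure D2:**
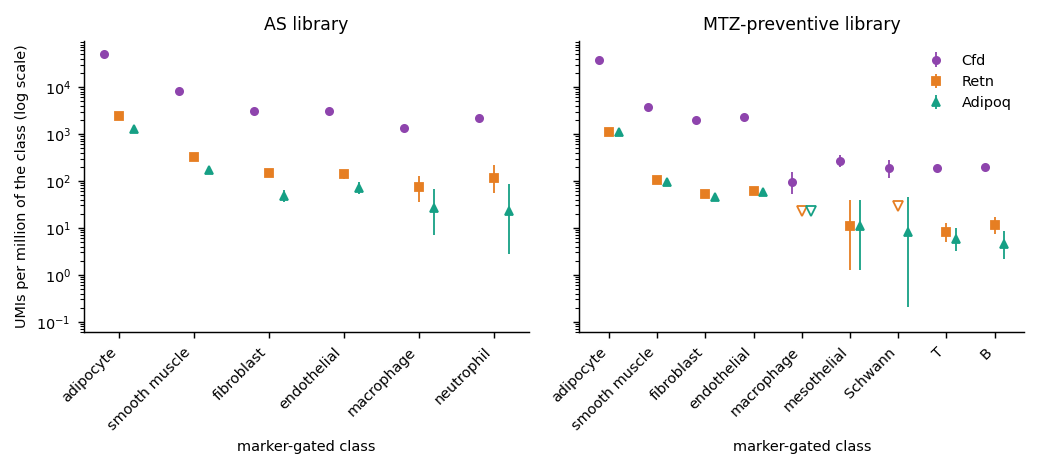
Level of Cfd, Retn and Adipoq in the marker-gated classes of the AS and MTZ-preventive libraries, in CPM of the class on a log axis, with bars for the 95% Poisson interval and open triangles for the upper limit of a count of 0. All 3 genes are highest in adipocyte-marker cells (Cfd 49784 and 37702 CPM) and fall in the other classes, in MTZ-preventive to 201 CPM of Cfd in B-marker cells and 93.7 CPM in macrophage-marker cells.

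Free RNA from broken cells enters every droplet, so the same genes were read in endothelial-marker cells of the same library. This class includes lymphatic endothelial cells. The study's discussion cites resistin as a product of endothelial cells, smooth muscle cells and macrophages in patients. From its own clusters the study reported Retn among the top markers of one that it read as endothelial cells or fibroblasts. How much of the endothelial-marker level is free RNA was not tested. Between adipocyte-marker and endothelial-marker cells, 6 of 8 genes were at least 2-fold higher in AS (Adipoq, Retn, Cfd, Rbp4, Rarres2 and Adipor2), against 12.6% of 8863 genes. In MTZ-preventive it was 5 of 8, the same without Rarres2, against 14.2% of 9228 genes. In the library labelled Healthy it was 4 of 8 (Adipoq, Retn, Cfd and Rbp4), against 29.6% of 10283 genes. Nampt there was at 0.446 of its endothelial-marker level, Rarres2 at 0.336 and Adipor2 at 0.273. Under looser cell limits it was 7 of 8 in this library, with Rarres2 and Adipor2 turning from lower to higher. The share of all genes at that setting was not recorded. Adipoq was 18.2-fold (13.6 to 24.9) higher in the adipocyte-marker cells of AS and 18.7-fold (16.5 to 21.3) in those of MTZ-preventive. Retn was 17.0-fold (13.8 to 21.3) and 18.9-fold (16.7 to 21.4) higher, and Cfd 16.1-fold (15.4 to 16.9) and 16.3-fold (16.01 to 16.7). In these 2 libraries the 3 genes fell by nearly the same factor. In the library labelled Healthy the factors were larger, with 107.5-fold (40.9 to 401) for Adipoq, 100.3-fold (38.1 to 374) for Retn and 373-fold (259 to 558) for Cfd. They rest on 4, 4 and 29 UMIs in endothelial-marker cells, and their intervals overlapped.

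What remained in endothelial-marker cells was 5.51% of the adipocyte-marker level for Adipoq, 5.87% for Retn and 6.20% for Cfd in AS, and 5.35%, 5.30% and 6.12% in MTZ-preventive. Of 10 other adipocyte genes outside the gate, 9 had a value in AS, with a median of 7.17% and a range of 0 to 32.7%. In MTZ-preventive all 10 had one, with a median of 6.90% and a range of 2.10 to 47.9%. Gpd1 (5.20% and 6.19%) and Mrap (4.84% and 7.60%) were near the adipokines, and Thrsp (26.7% and 47.9%) was far above them in both libraries. The endothelial level rests partly on cells with adipocyte markers of their own. In endothelial-marker cells with none, the log2 ratio rose from 4.18 to 6.46 for Adipoq, from 4.09 to 5.73 for Retn and from 4.01 to 6.14 for Cfd in AS, and to 6.73, 6.68 and 6.78 in MTZ-preventive.

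**Figure D3:**
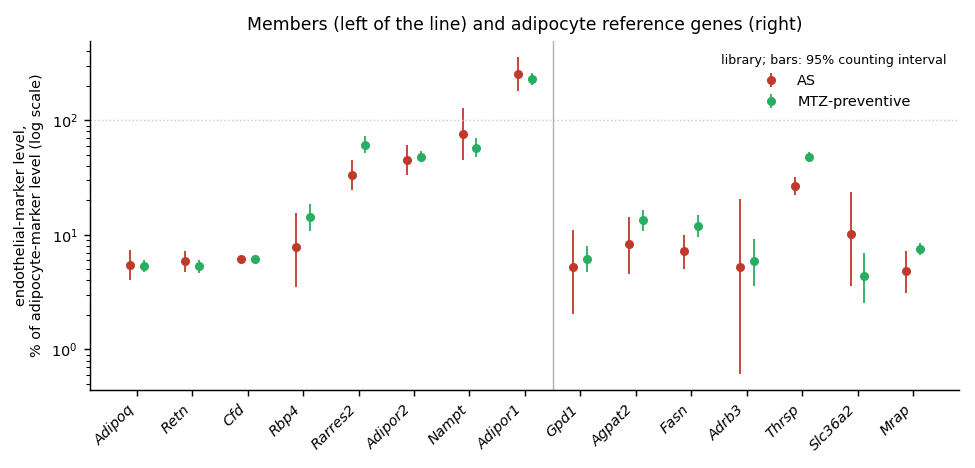
Level in endothelial-marker cells as a percentage of the level in adipocyte-marker cells of the same library, on a log axis with 95% counting intervals, for 8 of the genes (left of the line) and 7 adipocyte reference genes (right). Adipoq, Retn and Cfd lie between 5.30% and 6.20% in both libraries, while reference genes range widely (Thrsp at 26.7% and 47.9%), Nampt lies at 76.8% and 57.9% and Adipor1 lies above the dotted line at 100%.

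In AS and MTZ-preventive, smooth muscle-marker cells carried more of the 3 genes than endothelial-marker cells. In the library labelled Healthy they did not, with 11 Cfd UMIs of 4753640 in all, against 29 of 2654345 in endothelial-marker cells. Cfd was at 8265 CPM in the smooth muscle-marker cells of AS and 3803 CPM in those of MTZ-preventive, which was 16.6% and 10.1% of the adipocyte-marker level. Adipoq was at 13.4% and 8.80% of it and Retn at 13.7% and 9.35%, beside medians of 13.0% and 10.2% for the reference genes. Fibroblast-marker cells had 3065 and 1990 CPM of Cfd (6.16% and 5.28%). Against smooth muscle-marker cells the log2 ratio was 2.90 for Adipoq, 2.87 for Retn and 2.59 for Cfd in AS. Macrophage-marker cells, which in people are a known source of resistin, had 72.9 CPM of Retn in AS (36.4 to 130), with an interval that overlapped that of endothelial-marker cells (139 CPM, 112.5 to 171), and 0 UMIs in MTZ-preventive, which allows up to 18.7 CPM. Their Cfd was at 1318 and 93.7 CPM.

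Lymphocyte classes were far below the endothelial-marker cells. In MTZ-preventive B-marker cells Adipoq was at 4.56 CPM, Retn at 11.4 CPM and Cfd at 201 CPM, or 0.425%, 1.02% and 0.534% of the adipocyte-marker level, against a median of 1.66% for the reference genes. The receptor libraries gave a label of B and T cells that does not come from expression. In kept barcodes with a B cell receptor contig (1497 in MTZ-preventive), Adipoq was at 58.9 CPM (50.7 to 68.1), Retn at 84.2 CPM (74.2 to 95.03) and Cfd at 2407 CPM (2352 to 2462). Endothelial-marker cells were at 57.55, 59.57 and 2308 CPM, so that Retn was higher in these barcodes and Adipoq and Cfd were close. Of these barcodes 17 were themselves adipocyte-marker cells. In the 496 barcodes with a T cell receptor contig Adipoq was at 2.05 CPM, Retn at 4.79 CPM and Cfd at 178 CPM. T-marker cells had 189.5 CPM of Cfd, with an interval that overlapped that of these barcodes. Of the 1497 barcodes with a B cell contig 925 were B-marker cells. All 1139 B-marker cells of MTZ-preventive held 10 UMIs of Adipoq, 25 of Retn and 441 of Cfd. The 1497 barcodes held 182, 260 and 7436, so most of these UMIs lay in barcodes outside the B class. What kind of cells those barcodes held was not tested.

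Adipoq, Retn and Cfd climbed with each further adipocyte marker found in a cell, on both sides of the limit at 3. In AS cells with 0, 1, 2, 3, 4 and 5 or more markers, Adipoq was at 17.9, 72.1, 236, 492, 775 and 1460 CPM. Cfd went from 1169 CPM in 980 cells with no marker to 12578 CPM at 2 markers, 26314 CPM at 3 and 49823 CPM in 158 cells with 5 or more. In MTZ-preventive Retn went from 17.1 CPM with no marker to 126 CPM at 2, 292 CPM at 3 and 1275 CPM at 5 or more. The mean levels climbed below the limit as well as above it, and whether the cells form separate groups was not tested. Median depth was 1227 to 1379 UMIs in AS cells with up to 4 markers and 1795 at 5 or more, and 1620 to 1918 and 2600 UMIs in MTZ-preventive. Its part in the rise was not tested. Adipor2 went from 56.1 to 239.5 CPM in AS, with 152 CPM at 3 markers and 127 CPM at 4, and from 44.1 to 255 CPM in MTZ-preventive, while Rarres2 went from 361 to 279 CPM and from 343 to 88.6 CPM.

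**Figure D4:**
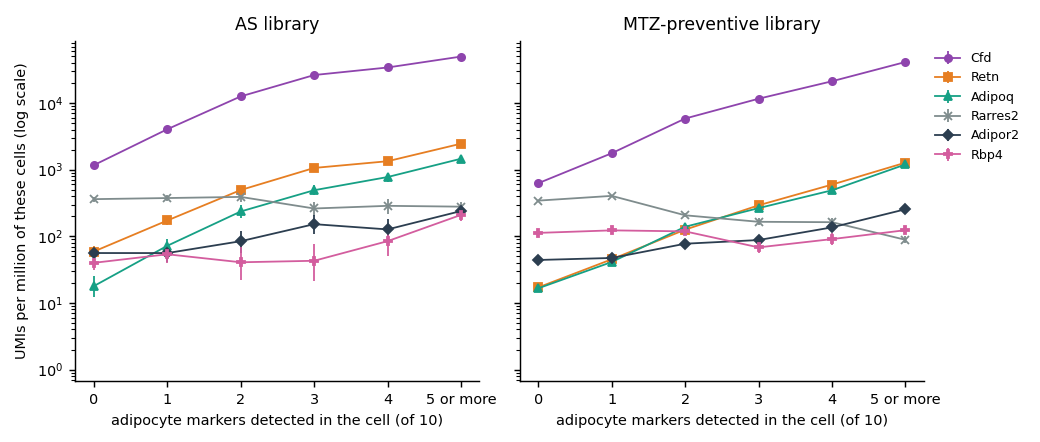
Level of 6 genes in kept cells with 0 to 5 or more of the 10 adipocyte markers, in CPM of these cells on a log axis, with 95% Poisson intervals, for the AS and MTZ-preventive libraries. Cfd, Retn and Adipoq rise at every step (Adipoq from 17.9 to 1460 CPM in AS), Adipor2 spans less, and Rarres2 ends lower than it starts.

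Ucp1, which marks brown fat, had a UMI in 7 adipocyte-marker cells of AS and 12 of MTZ-preventive. In these Adipoq was at 1870 CPM (1460 to 2358) and 1974 CPM (1727 to 2247), against 1264 and 1046 CPM in the cells without it. Cfd was at 74421 against 47939 CPM in AS and at 51251 against 37258 CPM in MTZ-preventive. In the library labelled Healthy the 1 such cell went the other way, with 119188 UMIs and 0 UMIs of Adipoq, Retn and Cfd. Cells with a Ucp1 UMI were deeper, with a median of 2239 against 1361 UMIs in AS and 8108 against 2288 in MTZ-preventive, and they were too few to read as a type.

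The count ratio of Retn to Adipoq differed between libraries. In adipocyte-marker cells there were 1.82 Retn UMIs per Adipoq UMI in AS (1.66 to 1.996) and 1.05 in MTZ-preventive (1.001 to 1.09). In endothelial-marker cells the same count ratio was 1.94 (1.35 to 2.81) and 1.03 (0.869 to 1.23), and in smooth muscle-marker cells 1.86 (1.504 to 2.32) and 1.11 (1.001 to 1.23). In these 3 classes the ratio went with the library. It was higher in the fibroblast-marker cells of AS, at 2.98 (2.12 to 4.26), and in the B-marker cells of MTZ-preventive, at 2.5 (1.16 to 5.83) on 25 and 10 UMIs. In the library labelled Healthy it was 0.933 (0.714 to 1.22) in adipocyte-marker cells and 0.512 (0.287 to 0.887) in fibroblast-marker cells. With all deposited barcodes it was 2.13 in AS, 1.23 in MTZ-treated, 1.17 in MTZ-preventive and 1.06 in the library labelled Healthy. Cfd UMIs per Adipoq UMI also differed there, at 45.9, 27.6, 36.5 and 23.2 in the same order. Cfd UMIs per Retn UMI were 21.6, 22.4, 31.3 and 21.8. In adipocyte-marker cells Cfd UMIs per Adipoq UMI were 38.1 (35.4 to 41.1) in AS and 35.1 (34.0 to 36.2) in MTZ-preventive, with overlapping intervals. Cfd UMIs per Retn UMI were 20.95 (19.8 to 22.2) and 33.5 (32.5 to 34.6) in these cells. Within adipocyte-marker cells Retn was 2.11-fold lower in MTZ-preventive than in AS (1.98 to 2.25), Cfd 1.32-fold (1.30 to 1.34) and Adipoq 1.22-fold (1.12 to 1.32).

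Retnlg, a paralog of Retn that neutrophils express, is a near relative whose reads could be confused with it. It was at 21043 CPM in the 35 neutrophil-marker cells of AS and at 563 CPM in adipocyte-marker cells, where Retn was at 2376 CPM. Retn in the neutrophil-marker cells was at 117 CPM (55.9 to 214), with an interval that held the endothelial-marker level. Over whole libraries Retnlg was at 1048 CPM in AS, 18.3 CPM in the library labelled Healthy, 15.5 CPM in MTZ-treated and 8.57 CPM in MTZ-preventive. Whether reads of Retnlg were counted as Retn was not tested. Retnla, another relative, was at 1917 CPM in the macrophage-marker cells of MTZ-preventive and at 0.819 CPM in its adipocyte-marker cells, and Retnlb had no UMI in any library.

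Leptin RNA was hardly found. Lep (ENSMUSG00000059201, chromosome 6, 29060221 to 29073876) had 30 UMIs in MTZ-preventive (0.845 CPM), 5 in AS (1.32 CPM), 2 in the library labelled Healthy (0.0675 CPM) and 0 in MTZ-treated, which allows up to 0.195 CPM. In adipocyte-marker cells it was at 3.67 CPM in AS (0.444 to 13.3, 2 UMIs) and 3.55 CPM in MTZ-preventive (1.89 to 6.07, 13 UMIs), against 0 and 1.12 CPM in endothelial-marker cells. The ratio of the last 2 was 3.17 (1.06 to 11.4). At 2 to 13 UMIs no difference between libraries was detectable within these cells.

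In fibroblast-marker cells Rbp4 was highest in the library labelled Healthy. Rbp4 (ENSMUSG00000024990, chromosome 19, 38116620 to 38125321) stood at 177 CPM in that library, 65.3 CPM in AS, 85.4 CPM in MTZ-treated and 114 CPM in MTZ-preventive. In fibroblast-marker cells it was at 829 CPM (804 to 855), 53.1 CPM (39.4 to 70.0), 109 CPM (100.2 to 118) and 166 CPM (158 to 174) in the same order. These cells held 79.8% of the Rbp4 UMIs of the library labelled Healthy and 20.2% in AS. Within them Rbp4 in AS was 0.0640 of its level in the library labelled Healthy (0.0474 to 0.0845), and it was 2.05-fold (1.54 to 2.80) higher in MTZ-treated than in AS and 3.12-fold (2.36 to 4.22) higher in MTZ-preventive.

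In smooth muscle-marker cells Rbp4 was at 170.2 CPM in the library labelled Healthy and at 82.8, 144 and 227 CPM in AS, MTZ-treated and MTZ-preventive. In those smooth muscle-marker cells that had no fibroblast marker it was only 11.4 CPM (4.91 to 22.4), 34.8 CPM (15.01 to 68.5), 24.5 CPM (15.7 to 36.5) and 52.8 CPM (41.5 to 66.3). The fall from the library labelled Healthy to AS was then turned, with log2 ratios of -1.04 over all and 1.61 over these cells, at 8 UMIs in each. In fibroblast-marker cells without a smooth muscle marker Rbp4 was at 515, 49.9, 111 and 146 CPM, so the direction there held (log2 ratio -3.97 over all and -3.37 over these). In adipocyte-marker cells it was at 171 CPM in AS (138 to 209) and 104 CPM in MTZ-preventive (93.9 to 115), 12.7-fold (6.38 to 28.5) and 7.04-fold (5.41 to 9.29) over the endothelial-marker cells. In AS this made adipocyte-marker cells the class with the highest Rbp4, holding 37.5% of its UMIs. In MTZ-preventive fibroblast-marker and smooth muscle-marker cells were higher.

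Rarres2 was spread over stromal cells and lower in adipocyte-marker cells. Rarres2 (ENSMUSG00000009281, chromosome 6, 48569696 to 48572845) stood at 202 CPM in the library labelled Healthy, 347 CPM in AS, 438 CPM in MTZ-treated and 308 CPM in MTZ-preventive. In fibroblast-marker cells it was at 519, 633, 737 and 540.4 CPM in the same order, and in smooth muscle-marker cells at 471, 367, 483 and 379.7 CPM. Mesothelial-marker cells, counted in MTZ-preventive only (52 cells), had the highest level of any class, 6581 CPM (6218 to 6960), and 11.2% of the Rarres2 UMIs of that library. Schwann-marker cells had 637 CPM in the library labelled Healthy, 643 CPM in MTZ-treated and 614 CPM in MTZ-preventive, with overlapping intervals. Adipocyte-marker cells had 286 CPM in AS (243 to 335) and 82.5 CPM in MTZ-preventive (73.4 to 92.3), while endothelial-marker cells had 95.9 and 50.6 CPM. Between 25.1% and 37.8% of AS fibroblast-marker and smooth muscle-marker cells had a UMI after thinning, and 10.8% of its endothelial-marker cells.

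Rarres2 in AS was 1.22-fold (1.11 to 1.33) its level in the library labelled Healthy in fibroblast-marker cells and 0.779 (0.685 to 0.882) of it in smooth muscle-marker cells. Without smooth muscle markers the fibroblast-marker cells were at 613, 833, 1002 and 717 CPM. Without fibroblast markers the smooth muscle-marker cells were at 345, 343, 391 and 305 CPM, and the fall in AS was no longer seen (log2 ratio -0.36 over all and -0.01 over these cells). Fibroblast-marker cells with a UMI of Prg4 (lubricin) had 688 CPM of Rarres2 in the library labelled Healthy, 698 CPM in AS, 779.9 CPM in MTZ-treated and 382 CPM in MTZ-preventive.

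**Figure D5:**
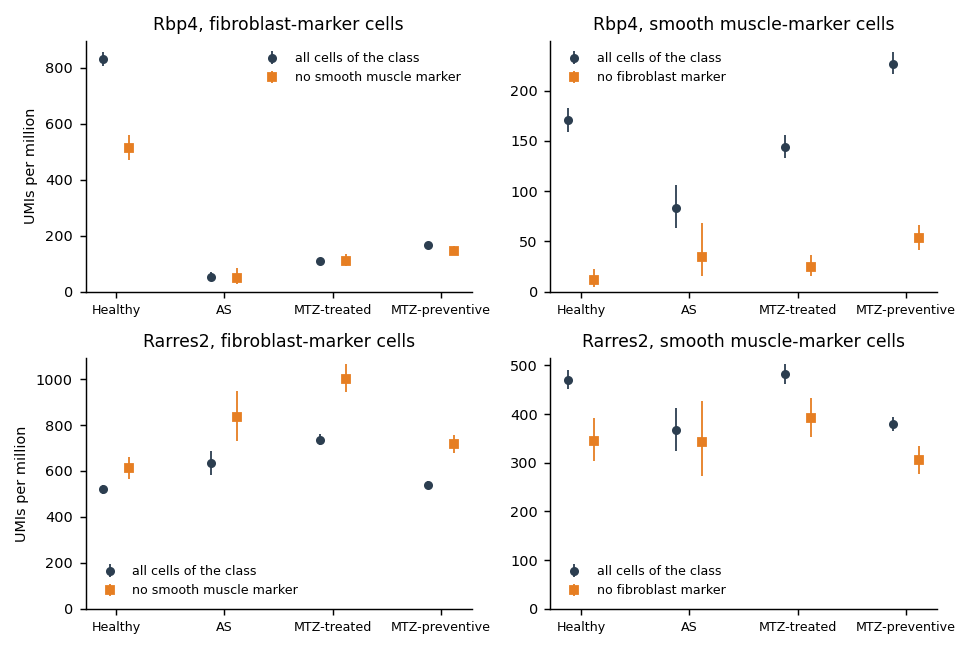
Level of Rbp4 (upper row) and Rarres2 (lower row) in fibroblast-marker cells (left) and smooth muscle-marker cells (right) of the 4 libraries, in CPM with 95% Poisson intervals, over all cells of the class and over those with no marker of the other class. Rbp4 in fibroblast-marker cells is highest in the library labelled Healthy either way (829 and 515 CPM), and in smooth muscle-marker cells it is low in all libraries once cells with fibroblast markers are left out (11.4 to 52.8 CPM).

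Nampt, the enzyme of nicotinamide salvage that is also found outside cells, varied little. Nampt (ENSMUSG00000020572, chromosome 12, 32820335 to 32853369) stood at 48.1 CPM in the library labelled Healthy, 41.4 CPM in AS, 33.5 CPM in MTZ-treated and 46.1 CPM in MTZ-preventive. In AS and MTZ-preventive it was at 60.6 CPM (41.7 to 85.03) and 70.5 CPM (62.1 to 79.6) in adipocyte-marker cells and at 46.5 CPM (31.6 to 66.0) and 40.8 CPM (35.1 to 47.1) in endothelial-marker cells. The interval of that ratio included 1 in AS (1.30, 0.774 to 2.20) and not in MTZ-preventive (1.73, 1.42 to 2.10). In the library labelled Healthy it was below 1, with 25.9 against 58.0 CPM (0.446, 0.261 to 0.720). B-marker cells had 66.7 and 68.0 CPM in the library labelled Healthy and in MTZ-preventive, above the adipocyte-marker cells of the first and near those of the second.

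Of the adiponectin receptors, Adipor2 followed the adipocyte-marker cells and Adipor1 did not. Adipor2 (ENSMUSG00000030168, chromosome 6, 119353150 to 119417699) stood at 43.0 CPM in the library labelled Healthy, 90.1 CPM in AS, 38.8 CPM in MTZ-treated and 72.2 CPM in MTZ-preventive. It was at 222 CPM (184 to 265) in the adipocyte-marker cells of AS and 223 CPM (208 to 239) in those of MTZ-preventive, 2.21-fold (1.63 to 3.03) and 2.08-fold (1.85 to 2.33) over endothelial-marker cells. Those held 35.4% and 31.8% of its UMIs. Endothelial-marker cells were at 100.4 and 107 CPM, and the 35 neutrophil-marker cells of AS at 105 CPM (47.95 to 199). Fibroblast-marker cells stood at 30.5 to 38.7 CPM in all 4 libraries. In the library labelled Healthy the order was the other way, with 23.1 CPM (13.5 to 37.1) in the 27 adipocyte-marker cells and 84.8 CPM (74.1 to 96.6) in endothelial-marker cells. With cells weighted equally instead of by depth the log2 ratio there turned from -1.87 to 1.14.

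Adipor1 (ENSMUSG00000026457, chromosome 1, 134415378 to 134433351) stood at 124 CPM in the library labelled Healthy, 159 CPM in AS, 126 CPM in MTZ-treated and 138 CPM in MTZ-preventive. Endothelial-marker cells had 195 to 249 CPM in all 4 libraries and the AS neutrophil-marker cells 466 CPM (333 to 635). Schwann-marker cells had 229 to 307 CPM in the 3 libraries that had enough of them. Adipocyte-marker cells had 86.2 CPM in AS and 108 CPM in MTZ-preventive, 0.394 (0.277 to 0.551) and 0.435 (0.387 to 0.488) of the endothelial-marker level. Between AS and the library labelled Healthy it was within 1.18-fold in endothelial-marker, fibroblast-marker and smooth muscle-marker cells, and the 3 intervals included 1.

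Of 20 other receptors and partners of these adipokines, 11 reached 10 CPM in the comparison of AS with the library labelled Healthy, and 6 were at least 2-fold higher and 0 lower (against 9.26% and 13.8% of all genes), with a median log2 ratio of 1.59. C3, which the convertase downstream of adipsin cleaves, was at 725 CPM in AS, 697.5 CPM in MTZ-preventive, 448 CPM in MTZ-treated and 131 CPM in the library labelled Healthy. Cfb, the protein that adipsin cleaves, was at 89.6, 90.6, 83.5 and 23.7 CPM in that order. In AS C3 was at 1476 CPM in fibroblast-marker cells and 853 CPM in adipocyte-marker cells, and Cfb at 187 and 78.9 CPM, so that Cfd and these 2 genes were highest in different classes there. The other 4 were the chemerin receptor Ccrl2, the anaphylatoxin receptors C3ar1 and C5ar1, and Tlr4. Ccrl2 was at 769 CPM in neutrophil-marker cells and 106 CPM in macrophage-marker cells of AS. Of 11 between MTZ-treated and AS, 3 were at least 2-fold lower and 0 higher (5.76% and 5.85% of all genes), and the same 3 genes (Ccrl2, C3ar1 and C5ar1) were lower in MTZ-preventive (2.98% of all genes). All 3 are expressed by myeloid cells. Macrophage-marker and neutrophil-marker cells made up 2.92% and 1.62% of AS cells. In MTZ-treated they made up 1.57% and 0.0294% (2 cells), and in MTZ-preventive 0.247% and 0% (up to 0.026%). Ccrl2 was also at 18.4 CPM in the endothelial-marker cells of MTZ-preventive. Whether the cell shares account for the lower levels was not tested. Both comparisons share the AS library.

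Cdh13 (T-cadherin), which binds adiponectin on endothelial and muscle cells, was at 217 CPM in the endothelial-marker cells of AS and 378 CPM in those of MTZ-preventive, against 22.0 and 16.9 CPM in adipocyte-marker cells. Cmklr1, the signalling receptor of chemerin, was between 6.72 and 9.75 CPM in all 4 libraries, and the leptin receptor Lepr was between 1.84 and 8.62 CPM. Stra6, a receptor for retinol-binding protein, and Ttr, its partner in plasma, were at or below 0.974 CPM.

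A further list held 16 genes of fat, most but not all of them for secreted factors. Of these, 9 reached 10 CPM between AS and the library labelled Healthy, with a median log2 ratio of 1.13. At least 2-fold higher were 4 and lower 3, against 9.26% and 13.8% of all genes. The 4 were Retnlg, Angptl4, C1qtnf9 and Nrg4, and the 3 were Retnla, Sfrp5 and Nnat. Retnlg is the neutrophil gene described above, and Sfrp5 was among the 10 leading genes of the Schwann class. C1qtnf9 was at 142 CPM in endothelial-marker cells of AS and 34.9 CPM in its adipocyte-marker cells. Angptl4, an inhibitor of lipoprotein lipase, was at 127 CPM in MTZ-preventive, 117 CPM in AS, 38.9 CPM in MTZ-treated and 19.4 CPM in the library labelled Healthy, and at 294 and 514 CPM in the adipocyte-marker cells of AS and MTZ-preventive, against 61.5 and 103 CPM in endothelial-marker cells. Nrg4 was at 69.7 and 45.6 CPM in adipocyte-marker cells against 5.996 and 3.14 CPM. Between these classes of AS, 6 of 9 listed factors were at least 2-fold higher in adipocyte-marker cells, against 12.6% of all genes. These were Retnlg, Angptl4, Angptl8 (6 UMIs against 0), Fgf21, Nrg4 and Nnat. The other 3, C1qtnf9, Metrnl and Fstl1, were at least 2-fold lower. In MTZ-preventive 4 of 7 were higher (Angptl4, Angptl8, Nrg4 and Nnat), against 14.2% of all genes, and C1qtnf9 and Fstl1 were lower. In the library labelled Healthy 3 of 8 were higher (Angptl8, Nrg4 and Nnat), against 29.6% of all genes. There 4 were lower, and the median log2 ratio was -1.79. Between MTZ-treated and AS 2 of 8 were higher and 3 lower (5.85% and 5.76% of all genes), and between MTZ-preventive and AS 2 were higher and 2 lower (6.3% and 2.98%). Of 7 transcription factors of fat cells 6 reached 10 CPM, of which 5 were at least 2-fold higher in AS than in the library labelled Healthy (Pparg, Cebpa, Cebpb, Mlxipl and Klf15, against 9.26% of all genes), 4 lower in MTZ-treated than in AS (5.76%) and 0 either way in MTZ-preventive (6.3% and 2.98%). Cebpa was at 275 and 406 CPM in adipocyte-marker cells and 19.5 and 35.6 CPM in endothelial-marker cells. Pparg was at 69.7 and 73.2 CPM in adipocyte-marker cells and no lower in endothelial-marker cells (72.0 and 105 CPM).

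The genes whose levels were most like those of each adipokine were named from 7736 genes over 34 groups of cells (class and library), by Pearson's r of log2(CPM + 1). These groups share libraries and depth, so the r values are a description. They were Cyp2e1 (0.973), Mrap (0.955) and Aldh1l1 (0.933) for Adipoq, Aldh1l1 (0.963), Mrap (0.949) and Orm1 (0.939) for Retn, and Cyp2e1 (0.967), Mrap (0.949) and Hp (0.946) for Cfd. For Rarres2 they were Fxyd1 (0.926), C1s1 (0.918) and Cys1 (0.910), and for Rbp4 Hspb8 (0.880), Abcc9 (0.873) and Medag (0.848). Adipor2 was most like Ccdc71l (0.815), Osgin1 (0.731) and Plin5 (0.712), Adipor1 like Diaph2 (0.811), Phospho1 (0.794) and Cpne2 (0.760), and Nampt like Mark2 (0.884), Oxa1l (0.882) and Chkb (0.880). Left out of this search were the adipokines and receptors themselves, the class markers, and immunoglobulin, T cell receptor and mitochondrial genes. Unnamed gene models were left out as well. None of these could therefore be named as most like an adipokine.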

How the data were processed

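Single-cell RNA of aortic tissue was measured in 4 gene expression libraries, 1 per group, with 1 B cell and 1 T cell receptor library each. The deposited matrices hold raw UMI counts per gene and barcode, which the authors made with Cell Ranger, as the submitters' processing notes say. These notes also name STAR and the build mm10, and the file headers give Cell Ranger 5.0.0. The receptor files list assembled contigs with UMI counts per contig, also as deposited, and only their barcodes were used.

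Barcodes were kept with over 200 genes, over 1000 UMIs, a log10 ratio of genes to UMIs over 0.7, under 10% mitochondrial and under 5% hemoglobin UMIs, the limits of the study's methods. Doublets were called in each library in the manner of Scrublet (2 simulated doublets per cell, 2000 variable genes, 30 components), and an expected 0.8% of doublets for each 1000 cells set how many were left out.

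Counts were summed over cells and scaled to 1e6 UMIs (CPM), which could shift all genes where a few take a large share. Levels have exact Poisson, shares Clopper-Pearson and ratios conditional binomial 95% intervals, which cover counting error only, so that deeper libraries and larger classes have narrower ones. With 1 library per group there is no test, and past 2-fold counts as called among genes at 10 CPM or more in either group. The gate uses no member. A class takes at least 3 of 10 markers, more than any other class, and at least 20 cells. The neutrophil class was led by S100a9 and S100a8, with 0 of its own markers among its top 10 genes. Shares of cells with a UMI were read after thinning each cell to 1000 UMIs.

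The 9 genes, the gene lists and the comparisons were chosen with earlier results of these data known. Genes named are the members, the listed partners, other genes of fat and transcription factors, Apoe and the class markers. Also named are the 3 genes most like each member by Pearson's r with a pseudocount of 1. These were sought among genes at 50 CPM or more in a group, for members with 100 UMIs. Ucp1, Prg4, the adipocyte reference genes and the leading genes of a class were named outside that rule, after their values were seen. Python 3.11.15 (matplotlib 3.10.9, scikit-learn 1.9.0, pandas 2.3.3, scipy 1.17.1, numpy 2.4.6) and, for TMM factors, edgeR 4.0.16 in R 4.3.3 were used. The intervals were run on simulated Poisson counts. The gate was run on cells simulated from the summed profiles of gated adipocyte-marker, endothelial-marker and B-marker cells. Those profiles came from the gate itself and left out the other classes, so the run does not show how well real cells were classed. Alternatives covered the cell limits, doublets, scaling, lymphocytes, the filter on low genes, the gate and the class read as free RNA.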

Additional observations from a re-analysis of the deposited data

Results flagged for a closer look

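Rarres2 moved in different directions in different cells of the same libraries. From the library labelled Healthy to AS its ratio was 2.961 in endothelial-marker cells, 1.218 in fibroblast-marker cells and 0.7786 in smooth muscle-marker cells. From AS to MTZ-treated it was 1.165 in fibroblast-marker cells, 1.317 in smooth muscle-marker cells and 0.4769 in endothelial-marker cells. In smooth muscle-marker cells without a fibroblast marker the fall from the library labelled Healthy to AS was not seen (345 CPM in the library labelled Healthy and 343 CPM in AS, log2 ratio -0.01). With 1 library per group the difference between classes was not tested. The endothelial-marker level was 95.9 CPM in AS, beside 633 CPM in its fibroblast-marker cells, and what free RNA adds to the lower level was not tested.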

How the results depend on the processing

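Of 662 values recomputed under other settings, 87 counts of genes stayed within 1.5 times the reported count and 5 did not. Of the single values, 411 stayed within their counting interval, 151 moved beyond it and 8 turned. A turn was counted only where the reported ratio was at least 2-fold, so smaller ratios that changed sign are among the others. The looser cell limits were 500 UMIs and 20% mitochondrial, without the log10 ratio and hemoglobin limits and with doublets called anew. Between MTZ-preventive and AS, 1 gene instead of 0 was at least 2-fold higher under them, against 5.89% of all genes. With all deposited barcodes it was also 1, against 5.49%. In both cases this was Rbp4 (log2 ratio 1.21 and 1.08). The count of genes at least 2-fold lower between these libraries was 2 with doublets kept (2.96% of all genes) and 2 with the mean of per-cell CPM (3.23%). Between adipocyte-marker and endothelial-marker cells of the library labelled Healthy, 7 genes instead of 4 were at least 2-fold higher under looser limits. The share of all genes was 29.6% at the reported limits and was not recorded at the looser ones. In that library Rarres2 turned to a log2 ratio of 3.01 and Adipor2 to 1.12 under looser limits, Rarres2 to 0.71 and Adipor2 to 1.14 with the mean of per-cell CPM, and Rbp4 to -2.38 with smooth muscle-marker cells read as free RNA. The last setting also turned Rarres2 in AS to -0.36 and Rbp4 in MTZ-preventive to -1.12. Rbp4 in smooth muscle-marker cells turned to 1.61 between AS and the library labelled Healthy when cells with a fibroblast marker were left out. The cause of these moves was not tested. Requiring 4 markers, or 2 more than any other class, left under 20 adipocyte-marker cells in the library labelled Healthy and gave no value there. The settings on barcodes shared by libraries, the deepest cell, stromal cells and Retn UMIs per Adipoq UMI were chosen after seeing the data. No paired analysis was possible because each group has 1 library, and for the same reason no library could be left out. Depth limits the values of Lep and of small classes.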
